A study of Mus musculus with 5 samples.

Results

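The genes described here are those of the mouse glutamate, GABA and glycine receptor families. Members were taken by symbol from the protein-coding genes of chromosomes 1 to 19 in the GENCODE annotation of the mm9 genome (Gria, Grik, Grid and Grm followed by a number, Grin1, Grin2a to Grin2d, Grin3a and Grin3b, the Gabr subunit series, Glra followed by a number, and Glrb). This gave 45 of 21418 genes. Of these, 44 encode a receptor subunit and 1, Grid2ip, encodes delphilin, a postsynaptic scaffold protein that the symbol rule also takes in. Each gene was set against lists of intervals enriched for H3K27me3 in 3 lines of mouse embryonic fibroblasts.

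Glutamate is the main excitatory transmitter of the brain, and GABA and glycine are the main inhibitory ones. AMPA, kainate, delta and NMDA receptors are the ionotropic glutamate receptor families, metabotropic receptors signal through G proteins, and GABA-A and glycine receptors are chloride channels built from homologous subunits. H3K27me3 is the trimethylated form of histone H3 lysine 27, placed by Polycomb Repressive Complex 2 (PRC2) and known for covering silent developmental and neuronal genes in cells that do not use them.

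All lines came from fibroblasts (MEFs) of a mid-gestation mouse embryo whose Eed gene, which encodes a PRC2 subunit, carries flanking loxP sites. The cells were transduced with lentivirus for stable expression, from the EF1a promoter by the study's methods, of histone H3.3 with lysine 27 changed to arginine (K27R), of H3.3 with lysine 27 changed to methionine (K27M), or of human EZHIP, and 1 library was made per line. K27M and EZHIP are inhibitors of PRC2, and the K27R histone cannot be methylated at that residue. The control line and the EED-null line, a single clone made with Cre, were not analysed here. With 1 library per line, a difference between lists cannot be set against the spread between replicates, and no test was made.

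On chromosomes 1 to 19 the K27R list held 12093 intervals with a median width of 15.6 kb, against 3338 of 6.8 kb for K27M and 4890 of 4.5 kb for EZHIP. The lists give positions only, so the depth is unknown and neither the transgenes nor RNA levels can be read from them. As a check of the labelled cell type, the start site of 1 of 15 fibroblast genes (Pdgfra) lay in a K27R interval, against 9 of 11 neuronal genes and 4 of 6 glial genes. Neuronal genes lay in K27M intervals in 8 cases and in EZHIP intervals in 6. Of all protein-coding genes, 28.2% had the start site in K27R, 8.94% in K27M and 7.96% in EZHIP.

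Most receptor genes carried H3K27me3 at the start site in K27R cells, fewer did so in K27M cells, and fewer still in EZHIP cells. The start site, the outermost 5′ end of the annotated gene, lay in a K27R interval in 36 of 45 members, or 80.0% (95% exact Clopper-Pearson interval 65.4% to 90.4%), against 28.2% of all protein-coding genes. For K27M it was 22 members, or 48.9% (33.7% to 64.2%), against 8.94% of all genes. For EZHIP it was 14 members, or 31.1% (18.2% to 46.6%), against 7.96% of all genes. These intervals cover counting error only, since related genes are not independent. Without Grid2ip the counts were 35, 21 and 13 of 44.

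The 22 K27M start sites and the 14 EZHIP start sites all belonged to members in the K27R list. Over all genes this held for 1911 of 1915 K27M start sites and 1701 of 1705 EZHIP start sites. Of the 36 K27R start sites, 22 or 61.1% were also in K27M (31.6% of all genes with a K27R start site) and 14 or 38.9% in EZHIP (28.2% of all such genes). A further 14 of the 36, or 38.9%, were in neither (64.3% of all such genes). Of the rest, 8 or 22.2% (10.1% to 39.2%), were in K27M and not in EZHIP, against 7.5% of all such genes. None was in EZHIP and not in K27M, with an exact upper limit of 9.74%, against 4.02% of all such genes. Every difference between K27M and EZHIP at a member start site was therefore in 1 direction.

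The counts differed between the excitatory and inhibitory families, a difference for which no test was made because genes are not replicates. Of 25 glutamate receptor genes, 22 had a K27R interval over the start site, 18 a K27M interval and 12 an EZHIP interval. Of 19 GABA and glycine receptor genes, 13 had a K27R interval there, 3 a K27M interval and 1 an EZHIP interval. As shares, glutamate receptor genes had 88.0%, 72.0% and 48.0%, all above the 28.2%, 8.94% and 7.96% of all genes. GABA and glycine receptor genes had 68.4% in K27R, also above all genes, but 15.8% (3.38% to 39.6%) in K27M and 5.26% (0.133% to 26.0%) in EZHIP, intervals that take in the shares of all genes. Of K27R start sites, 81.8% of the glutamate receptor genes and 23.1% (5.04% to 53.8%) of the GABA and glycine receptor genes were also in K27M, against 31.6% of all genes. Both families thus lay mostly in K27R intervals, while K27M and EZHIP intervals were at start sites of the glutamate family in all but 3 and 1 cases, Grid2ip aside.

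**Figure D1:**
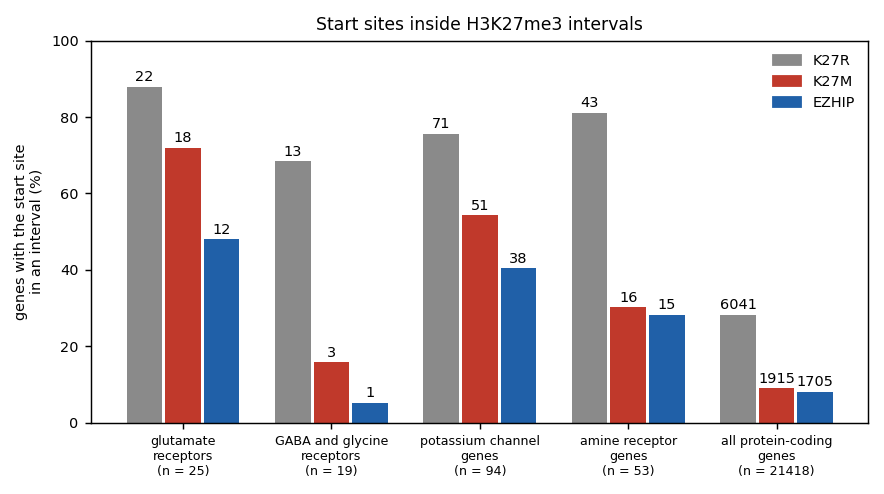
Share of genes (%) whose start site lay inside an H3K27me3 interval of the K27R, K27M or EZHIP library, with the number of genes above each bar and 1 library per bar. Glutamate receptor genes show 22, 18 and 12 of 25, and GABA and glycine receptor genes 13, 3 and 1 of 19.

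AMPA receptors carry most fast excitatory transmission. Gria2, whose subunit sets the calcium permeability of the channel, lies on the minus strand at chr3:80488858-80606713 and had its start site in all 3 lists. Its K27R interval spanned 60 kb, its K27M interval (chr3:80601401-80608200) 6.8 kb and its EZHIP interval (chr3:80602201-80607000) 4.8 kb, each nested in the one before. Gria1 and Gria4 had the start site in K27R only. Gria1 had no K27M interval within 549.1 kb of its start site, whereas a K27M interval of 2.4 kb began 34 bp inside Gria4 and covered another annotated transcript start of that gene.

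Kainate receptors modulate transmission on both sides of the synapse. None of the 5 kainate genes was in K27R only, a state of 18.1% of all genes and 64.3% of those with a K27R start site. Grik4, a high-affinity subunit gene on the minus strand at chr9:42326218-42752576, lay whole in the widest K27R interval at any member start site, 489.2 kb. Within it, the start site carried a K27M interval of 22.2 kb (chr9:42737401-42759600) and an EZHIP interval of 23.0 kb (chr9:42737801-42760800). Grik4 was the only member whose EZHIP interval at the start site was the wider one. A K27M interval of 10.0 kb and an EZHIP interval of 6.8 kb inside it lay further in, beginning 41.8 and 44.2 kb from the start site, over 1 CpG island and no annotated exon.

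Grik1 (minus strand, chr16:87896441-88289947) was in all 3 lists, with a K27R interval of 55.0 kb, a K27M interval of 5.2 kb (chr16:88287001-88292200) and an EZHIP interval of 2.8 kb (chr16:88288801-88291600). Grik2 and Grik3 were in K27R and K27M and not in EZHIP, but in different ways. Grik2 (minus strand, chr10:48819266-49508572) had a K27M interval of 12.6 kb at the start site (chr10:49498201-49510800) and an EZHIP interval of 4.0 kb inside that one, beginning 3572 bp from the start site and covering other annotated starts of the gene. Grik3 (plus strand, chr4:125167944-125391417) had a K27M interval of 8.6 kb (chr4:125162801-125171400) and no EZHIP interval within 439.5 kb. Its body was nonetheless 63.8% covered in K27R cells, by 4 intervals. Grik5, the other high-affinity subunit gene, was outside K27R at its start site, with 3.41% of its body covered at the far end.

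The delta receptors bind cerebellin and organise synapses. Grid1 (plus strand, chr14:35633011-36396565) was in all 3 lists, and its K27R interval of 102.4 kb held a K27M interval of 14.4 kb (chr14:35627201-35641600) and an EZHIP interval of 10.2 kb (chr14:35629401-35639600). Grid2ip (plus strand, chr5:144119017-144153831) was in all 3 lists, with a K27M interval of 41.4 kb (chr5:144098401-144139800) around an EZHIP interval of 21.6 kb (chr5:144116401-144138000).

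NMDA receptors are calcium-permeable coincidence detectors that need the subunit encoded by Grin1. Grin1 (minus strand, chr2:25146701-25174707) was covered whole in K27R and in K27M and over 94.3% of its body in EZHIP. At the start site the K27M interval (chr2:25141201-25182600) spanned 41.4 kb and the EZHIP interval (chr2:25156801-25182800) 26.0 kb. Grin2c (minus strand, chr11:115110483-115128557), whose subunit is known from cerebellar granule cells, was covered whole in all 3 lists. Its K27M interval of 36.0 kb (chr11:115098401-115134400) was wider than its K27R interval of 32.4 kb, and its EZHIP interval (chr11:115107401-115130800) spanned 23.4 kb.

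Grin3a (minus strand, chr4:49674483-49858616), which encodes a glycine-binding subunit, was also in all 3 lists but with narrow residual intervals, 4.8 kb in K27M (chr4:49856201-49861000) and 2.4 kb in EZHIP (chr4:49857201-49859600). Grin2a (minus strand, chr16:9577803-9995014) carried a K27M interval of 2.2 kb (chr16:9994201-9996400) and no EZHIP interval within 197.6 kb. Grin2b, the subunit gene that predominates early in brain development, was in K27R only, with the nearest EZHIP interval at 485.9 kb and the nearest K27M interval at 1074 kb. Grin3b was in K27R only by its outermost start, while the same 1.2 kb interval in K27M and EZHIP began 141 bp inside the gene. Grin2d was outside K27R at its start site. Its far end held a K27R interval of 12 kb and a K27M interval of 4.2 kb.

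Metabotropic receptors signal through G proteins. None of the 8 genes was in K27R only, a state of 18.1% of all genes and 64.3% of those with a K27R start site. Grm4, a presynaptic receptor gene on the minus strand at chr17:27559332-27650286, lay whole in a K27R interval of 326.0 kb. Intervals at its start site spanned 38.8 kb in K27M (chr17:27620801-27659600) and 17.6 kb in EZHIP (chr17:27640001-27657600), and with the intervals deeper in the gene 55.9% of the body was covered in K27M and 63.1% in EZHIP. Grm5, the gene of a postsynaptic receptor, was at the opposite end, with no interval of any list in its body and the nearest K27R interval 622.8 kb away. The 300 bases upstream of these starts are shown because the genes are of 1 family and differed in every list. Letters are mm9, 5′ to 3′ on the strand of the gene, with each CG in capitals, for Grm4 from chr17:27650287-27650586 (minus strand) and for Grm5 from chr7:94750652-94750951 (plus strand).
Grm4: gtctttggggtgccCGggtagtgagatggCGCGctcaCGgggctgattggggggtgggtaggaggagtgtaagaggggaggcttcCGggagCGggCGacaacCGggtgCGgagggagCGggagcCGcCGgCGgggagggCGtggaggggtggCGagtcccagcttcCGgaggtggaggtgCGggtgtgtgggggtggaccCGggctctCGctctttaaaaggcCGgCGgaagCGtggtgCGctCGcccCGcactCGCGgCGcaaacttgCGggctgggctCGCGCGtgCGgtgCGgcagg
Grm5: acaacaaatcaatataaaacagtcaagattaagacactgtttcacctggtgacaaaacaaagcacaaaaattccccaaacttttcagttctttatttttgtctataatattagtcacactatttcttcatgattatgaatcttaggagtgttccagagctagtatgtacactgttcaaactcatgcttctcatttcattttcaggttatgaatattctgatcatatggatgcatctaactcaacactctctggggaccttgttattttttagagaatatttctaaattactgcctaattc
The Grm4 window held 34 CG and the Grm5 window 0. Over all genes the median was 10 CG, and 6.04% of genes had none.

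The metabotropic genes Grm6, Grm8 and Grm3 were also in all 3 lists. Grm6 (plus strand, chr11:50664187-50679710), the receptor of retinal ON bipolar cells, had 19.2 kb in K27M (chr11:50655601-50674800) and 8.0 kb in EZHIP (chr11:50659801-50667800). Grm8 (minus strand, chr6:27225121-28085178) had 9.6 kb (chr6:28076401-28086000) and 6.4 kb (chr6:28079601-28086000), which ended at the same base. The narrowest EZHIP interval at a member start site was that of Grm3 (minus strand, chr5:9485236-9725352), 1.6 kb (chr5:9724401-9726000) inside a K27M interval of 2.2 kb (chr5:9724201-9726400).

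Grm2 and Grm7, both genes of presynaptic receptors, were in K27R and K27M and not in EZHIP, in each case by a short distance. At Grm2 (minus strand, chr9:106546868-106558440) the K27M interval of 4.0 kb (chr9:106555201-106559200) took in the start site and the EZHIP interval of 3.6 kb ended 40 bp short of it. At Grm7 (plus strand, chr6:110595575-111517224) the K27M interval of 4.6 kb (chr6:110594001-110598600) was wider than the K27R interval of 4.0 kb, and an EZHIP interval of 1.2 kb began 826 bp inside the gene.

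**Figure D2:**
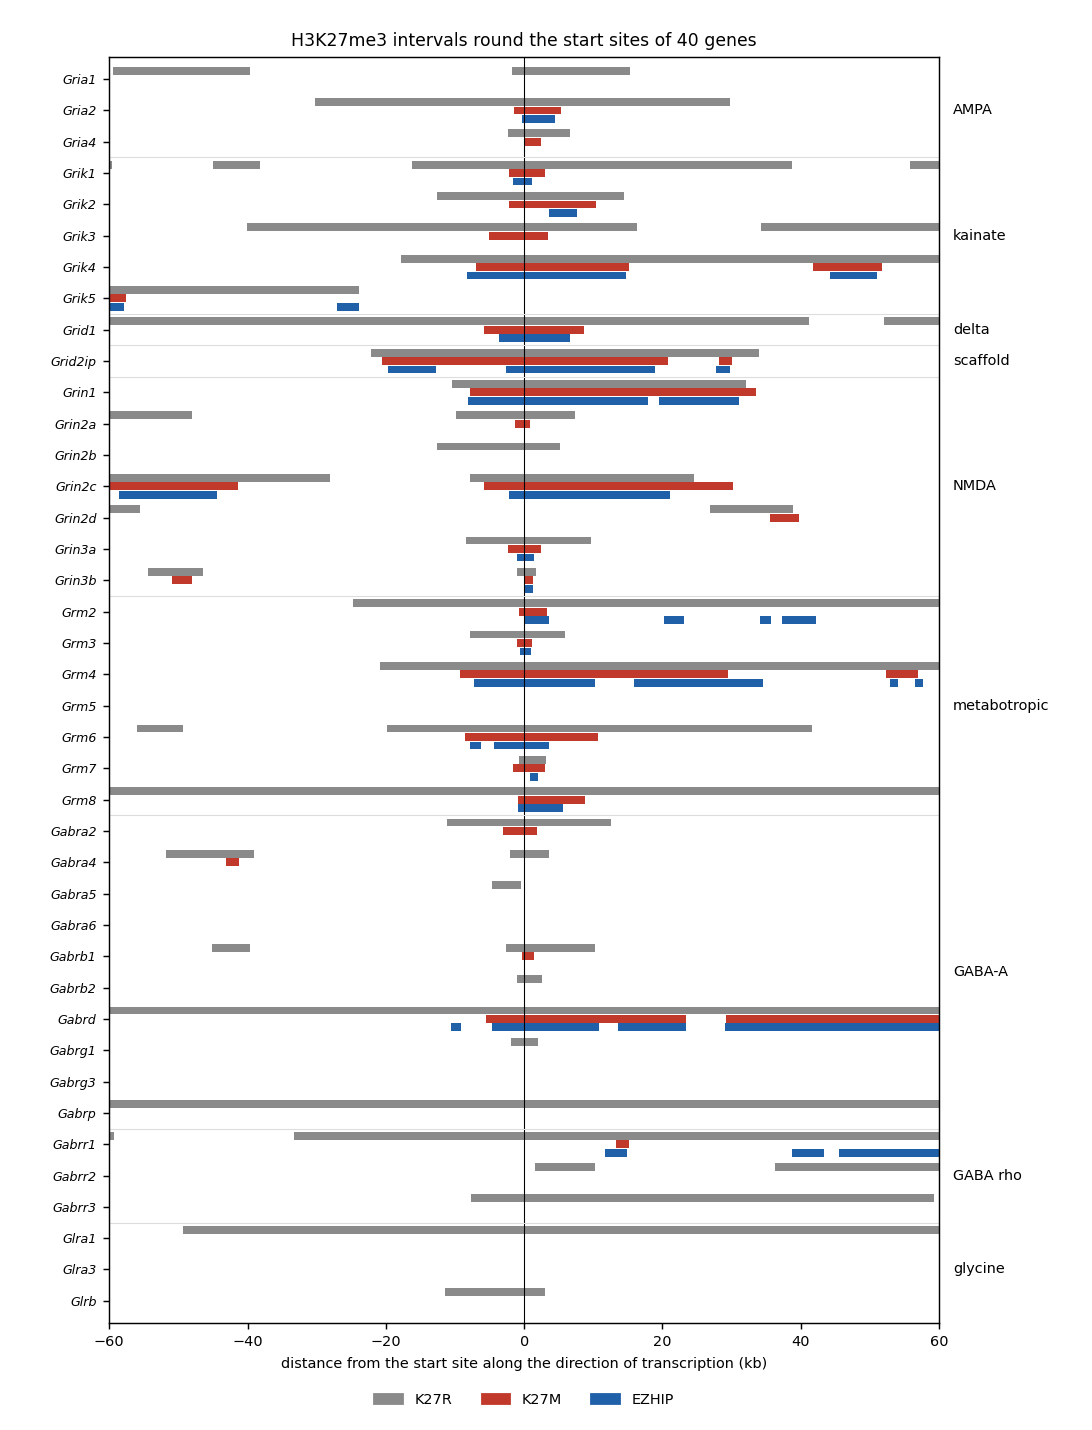
Intervals of the K27R (grey), K27M (red) and EZHIP (blue) libraries within 60 kb of the start site of 40 of the 45 genes, as distance in kb along the direction of transcription, by receptor class. K27M and EZHIP intervals gather on the start sites of glutamate receptor genes and are absent from most GABA-A, rho and glycine receptor genes.

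GABA-A receptors carry most fast inhibition in the brain. Of 13 genes, 9 had the start site in K27R, 3 of them also in K27M and 1, Gabrd, in all 3 lists. Gabrd encodes the delta subunit of extrasynaptic receptors and lies on the minus strand at chr4:154759089-154772221. The K27R interval there spanned 180.6 kb, the K27M interval 29.0 kb (chr4:154748801-154777800) and the EZHIP interval 15.4 kb (chr4:154761401-154776800), covering the whole body in the first 2 cases and 82.4% of it in EZHIP. Gabrp, the gene of the pi subunit, which is known from tissues outside the brain, also lay whole in a wide K27R interval, 136.4 kb (chr11:33418001-33554400), but had no K27M interval within 201.2 kb and no EZHIP interval within 264.0 kb. The upstream bases of this pair are shown because both genes were covered whole in K27R and only Gabrd in the other lists, with Gabrd from chr4:154772222-154772521 and Gabrp from chr11:33478960-33479259, both on the minus strand and marked as before.
Gabrd: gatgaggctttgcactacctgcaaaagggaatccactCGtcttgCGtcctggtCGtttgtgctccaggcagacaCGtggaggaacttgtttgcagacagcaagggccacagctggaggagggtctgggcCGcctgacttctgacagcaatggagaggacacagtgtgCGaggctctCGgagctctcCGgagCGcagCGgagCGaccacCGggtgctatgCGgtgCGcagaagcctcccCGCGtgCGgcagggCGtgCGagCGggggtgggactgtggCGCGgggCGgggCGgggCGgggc
Gabrp: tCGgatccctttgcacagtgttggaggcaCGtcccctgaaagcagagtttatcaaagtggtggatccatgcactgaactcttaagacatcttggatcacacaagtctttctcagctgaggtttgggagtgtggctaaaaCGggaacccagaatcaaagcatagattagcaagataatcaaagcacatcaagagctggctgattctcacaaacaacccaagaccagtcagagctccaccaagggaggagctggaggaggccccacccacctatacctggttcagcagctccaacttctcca
Gabrd had 25 CG in its window and Gabrp 3. The windows of members in all 3 lists held from 3 to 44 CG, with a median of 22. Those of members in K27R only held from 1 to 21, with a median of 10, so the states overlapped.

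Most other GABA-A genes lie in clusters. The cluster of Gabrg1, Gabra2, Gabra4 and Gabrb1 on chromosome 5 spans 1387 kb, of which 9 K27R intervals covered 10.2%. All 4 start sites were in K27R, each in its own interval of 4.0 kb (Gabrg1), 23.6 kb (Gabra2), 5.6 kb (Gabra4) or 12.8 kb (Gabrb1). K27M had 2 intervals in the cluster, both at start sites. That of Gabra2 (minus strand, chr5:71352296-71487088) spanned 5.0 kb (chr5:71485201-71490200) and that of Gabrb1 (plus strand, chr5:72091171-72529628) 1.8 kb (chr5:72090801-72092600). EZHIP had none in the cluster, and the nearest EZHIP intervals to these start sites were 1403 kb from Gabra2 and 799.0 kb from Gabrb1.

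Gabrb2, which encodes a beta subunit, was in K27R only, through an interval of 3.6 kb, and had no CpG island. The nearest K27M and EZHIP intervals were 1104 and 1059 kb away. Gabrg3, Gabra5 and Gabra6 were outside K27R by start site and had 0.0% of the body covered in every list. At Gabra5 a K27R interval of 4.2 kb stopped 422 bp short of the start site. Both Gabra5 and Gabrg3 had an island at the start site.

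**Figure D3:**
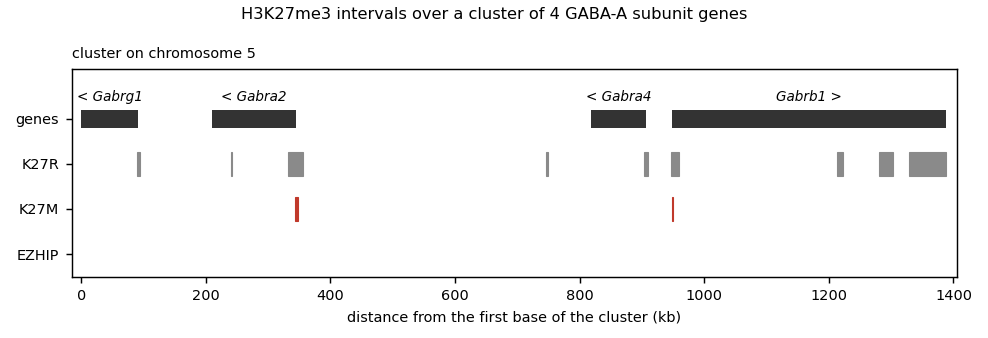
Genes (black, with the direction of transcription) and intervals of the 3 libraries along the cluster of 4 GABA-A subunit genes on chromosome 5, in kb from its first base. Each gene has a K27R interval at its start site, K27M has 2 intervals in the cluster and EZHIP has none.

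The rho subunits form the GABA receptors of the retina. Gabrr1 and Gabrr3 had the start site in K27R only, and both lay whole in K27R intervals, of 136.8 kb (chr4:33186201-33323000) and 67.0 kb. Gabrr1 held a K27M interval of 1.8 kb and an EZHIP interval of 3.2 kb that began 13.3 and 11.71 kb inside the gene. Over the whole K27R interval of Gabrr1, 1 K27M interval covered 1.32% and 4 EZHIP intervals 26.2%. That interval also held the start sites of Pm20d2 and Srsf12, both in EZHIP and not in K27M. Gabrr2, the neighbour of Gabrr1, was outside K27R at the start site. Its nearest K27R interval was at 1627 bp, and 26.2% of its body was covered in K27R.

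Glycine receptors carry inhibition in the spinal cord and brainstem. Glra1, the adult alpha subunit gene, lay in the widest K27R interval of any member in K27R only, 142.4 kb (chr11:55328601-55471000), over 99.1% of its body. The nearest K27M and EZHIP intervals were 429.5 and 430.1 kb from its start site. Glrb, the beta subunit gene, had a K27R interval of 14.4 kb and a CpG island, and the nearest K27M interval was at 109.4 kb. Glra3 was outside K27R, with no interval in its body.

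**Figure D4:**
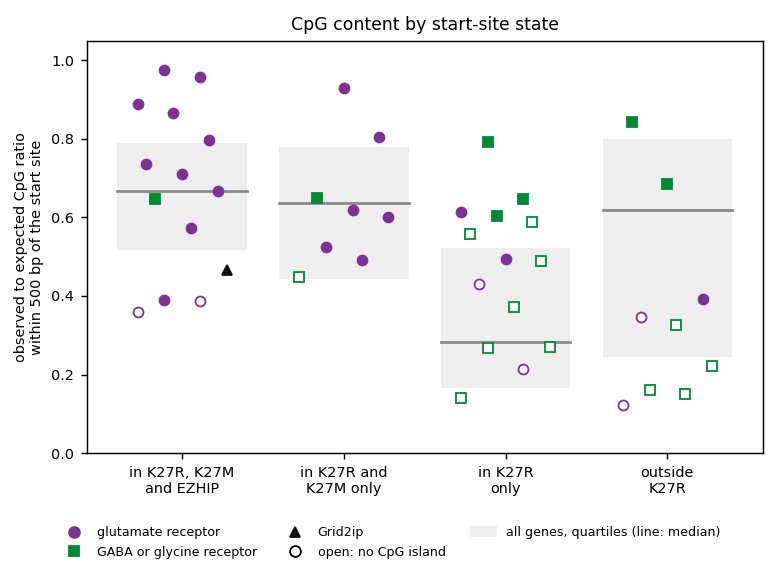
Observed to expected CpG ratio within 500 bp of the start site (no unit) for each of the 45 genes, by the lists that held the start site, over the quartiles and median of all protein-coding genes in the same state. The genes in all 3 lists have a median of 0.688 and those in K27R only 0.492, and filled points, with a CpG island, are most of the genes in K27M intervals.

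CpG content is a feature the choice of genes did not use, and its median was highest for start sites in all 3 lists. The median observed to expected CpG ratio was 0.688 for the 14 genes in all 3 lists (95% interval of the median 0.39 to 0.89), 0.609 for the 8 in K27R and K27M, 0.492 for the 14 in K27R only (0.267 to 0.614) and 0.325 for the 9 outside K27R. Over all protein-coding genes the same states had medians of 0.668, 0.636, 0.282 and 0.619. The receptor genes followed that order except outside K27R, where they were the lowest and all genes were not. The intervals of the medians for genes in all 3 lists and in K27R only overlapped.

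A CpG island stood within 500 bp of the start site in 27 members, or 60%, against 54.3% of all genes. Among K27R start sites it was 24 of 36, or 66.7%, against 44.5%. With an island, 19 of the 24, or 79.2% (57.8% to 92.9%), were also in K27M or EZHIP, against 60.5% of all genes with a K27R start site and an island. Without one, 3 of 12, or 25% (5.49% to 57.2%), were, against 15.7%. This last count moved with the island rule, to 8 of 18 with islands of at least 500 bp and to 1 of 9 with islands within 2000 bp, where the counts with an island were 14 of 18 and 21 of 27. Grm3 and Gabrb1 were among those 3, and the K27M interval at Gabrb1 overlapped an island further from the start site.

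The families differed in islands as well as in intervals. Among K27R start sites, 18 of 22 glutamate receptor genes had an island and 16 of the 18 were in K27M or EZHIP. Among GABA and glycine receptor genes 5 of 13 had an island, of which 2 (Gabrd and Gabra2) were in K27M or EZHIP, and 3, Glrb and Gabra4 among them, were not. Without an island it was 2 of 4 glutamate receptor genes and 1 of 8 GABA and glycine receptor genes. The part of CpG content in the difference between families was not tested.

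At the 14 start sites in all 3 lists the K27M interval was wider than the EZHIP interval in 13, Grik4 being the exception, and the EZHIP interval lay inside the K27M interval in 12, or 85.7%, against 69.6% of all genes in that state. The ratio of widths had a median of 1.72 and ran from 0.965 (Grik4) to 2.4 (Grm6). Over all 1458 such genes K27M was wider in 78.5%, with a median ratio of 1.42. These widths are of the single interval over each start site, and EZHIP intervals were at times split where K27M had 1. At Grin1 a further EZHIP interval of 11.6 kb lay wholly inside the K27M interval. At Grm4 a further EZHIP interval of 18.6 kb was 73.1% inside K27M intervals. Elsewhere, as at Gria2 and Grin3a, the K27M interval held 1 EZHIP interval. Widths with such pieces joined were not compared. Median widths at the 14 start sites were 60.7 kb for the K27R list, 16.8 kb for K27M and 9.1 kb for EZHIP, against 132 kb, 13.8 kb and 9.1 kb over all such genes. At the 8 start sites without EZHIP the K27M interval was narrower, with a median of 4.3 kb and a range from 1.8 kb (Gabrb1) to 12.6 kb (Grik2). It was also narrower over all genes in that state, with a median of 5.8 kb against the 13.8 kb above. At the 14 in K27R only, the K27R interval had a median width of 11.7 kb, against 77.0 kb over all genes in that state, with a range from 2.8 kb (Grin3b) to 142 kb (Glra1). These medians by state count an interval once per gene, so over all genes an interval with several start sites enters more than once. With each K27R interval at a start site counted once, whatever the state, the median was 30.3 kb for members and 51.8 kb for all genes.

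Receptor genes are long, with a median length of 118 kb against 15.5 kb for all genes. K27R intervals touched 39 bodies, or 86.7%, against 34.2% of all genes. For K27M it was 26 bodies, or 57.8%, against 11.3%, and for EZHIP 20, or 44.4%, against 10.9%. Asking for at least 10% of the body left 25, 8 and 9 bodies in the same lists, so that the order of K27M and EZHIP turned. A longer body is more easily touched, and by length the members stood close to all genes. Of 11.7 Mb of summed body, K27R intervals held 15.9%, K27M intervals 2.08% and EZHIP intervals 1.75%, against 19.1%, 1.99% and 1.71% for all genes.

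Cover was densest in the first 10 kb of the genes, as it was over all genes. Of the first 10 kb of the bodies, K27R intervals held 66.3%, K27M intervals 30.3% and EZHIP intervals 22.2%, against 13.9%, 0.953% and 0.934% of the rest. That first stretch made up 3.83% of the body length and held 15.9% of the K27R cover, 55.9% of the K27M cover and 48.6% of the EZHIP cover. Over all genes, whose first 10 kb made up 16.7% of the body length, it held 22.9%, 53.8% and 53.7% of the cover. That stretch was 26.1%, 6.38% and 5.48% covered over all genes, and the rest of their bodies 17.6%, 1.1% and 0.95%. The median body share in K27R was 10.8% and the mean 35.1%, since 10 bodies, or 22.2%, lay whole in K27R intervals, against 18.1% of all genes. Those 10 were Grin1, Grin2c, Grik4, Grm2, Grm4, Grm6, Gabrd, Gabrp, Gabrr1 and Gabrr3.

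**Figure D5:**
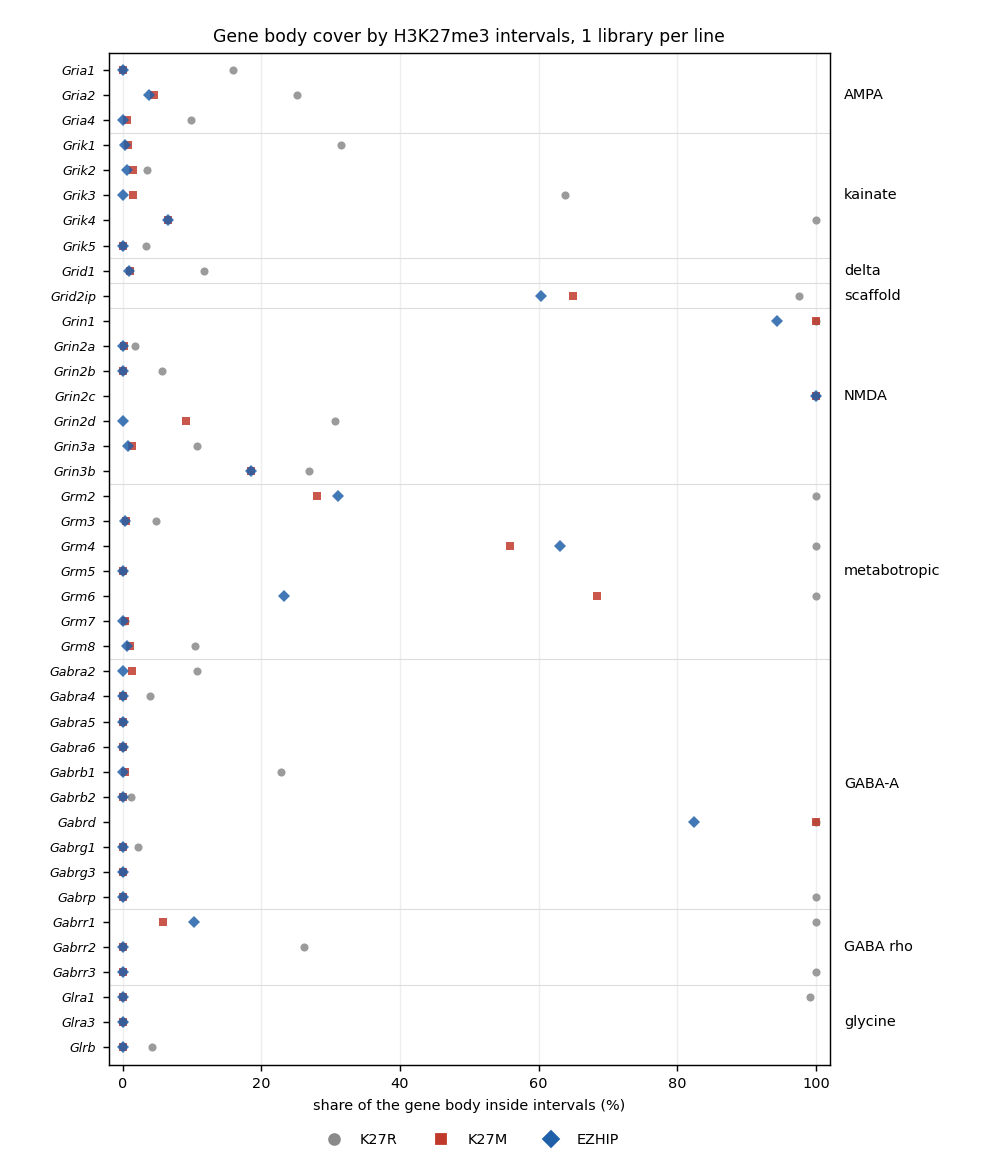
Share (%) of the gene body, for 40 of the 45 genes, inside intervals of the K27R (circles), K27M (squares) and EZHIP (diamonds) libraries, 1 library per line, by receptor class. Most long genes have under 40% of the body in K27R intervals and near 0% in the others. Grin1, Grin2c, Gabrd, Grm4 and Grid2ip have most of the body covered in all 3.

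Of 32 K27M intervals that touched a member, 22 were at a start site and 28 lay wholly inside K27R intervals, the exceptions being those at Grin1, Grin2c, Grm7 and Grin2d. Of 29 EZHIP intervals, 14 were at a start site and all 29 lay inside K27R intervals. The share of all K27M or EZHIP intervals that lie inside K27R intervals was not computed. Whether such nesting is particular to these genes is therefore not known. By start site alone, a weaker measure that asks nothing of the rest of the interval, 1911 of 1915 K27M and 1701 of 1705 EZHIP start sites of all genes were in K27R. The 36 start sites in K27R belonged to 36 separate intervals, and 9 of those also held the start site of another protein-coding gene. Over all genes, the 6041 start sites in K27R lay in 3437 intervals.

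Other genes of the same synapses, taken from a list of 54 of which 52 are on chromosomes 1 to 19, had a K27R interval at the start site in 32 cases, a K27M interval in 24 and an EZHIP interval in 22. Of these 20 were in all 3 lists, 4 (Cacng5, Neto1, Shisa6 and Slc12a5) in K27R and K27M, 2 (Slc6a11 and Abat) in K27R and EZHIP, and 6 in K27R only. Auxiliary receptor subunits had 11, 9 and 6 of 15 in the respective lists. Genes of GABA and glycine synthesis and transport had 9, 5 and 7 of 10, and genes of glutamate transport 5, 3 and 3 of 9. For scaffolds it was 5 of 14 in each list. Over all protein-coding genes 28.2% of start sites were in K27R, 8.94% in K27M and 7.96% in EZHIP. In K27R, scaffolds were not far above that share. Gabbr2, which encodes a subunit of the metabotropic GABA receptor, was in all 3 lists and Gabbr1 in none. Among these 52 genes, the only start sites in EZHIP and not in K27M were those of Slc6a11 and Abat. Slc6a11 is a GABA transporter gene, and Abat the gene of the enzyme that breaks down GABA. Over all protein-coding genes, 243 of 6041 K27R start sites were in EZHIP and not in K27M.

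Other gene sets were taken by the start of the symbol alone. Their shares stand beside 28.2% of all protein-coding genes in K27R, 8.94% in K27M and 7.96% in EZHIP. Of 94 potassium channel genes (Kcn), 71 (75.5%) had a K27R interval at the start site, 51 (54.3%) a K27M interval and 38 (40.4%) an EZHIP interval. None of them was in EZHIP and not in K27M. Amine receptor genes (Drd, Htr with a number, Adra, Adrb, Hrh, Chrm or Taar) had 43, 16 and 15 of 53, or 81.1%, 30.2% and 28.3%. Of these, 3 were in K27R and K27M and 2 in K27R and EZHIP. The set includes trace amine receptors (Taar) and any gene that shares such a start, whether or not it encodes a receptor. In K27M and EZHIP, glutamate receptor genes had shares nearer to those of the potassium channel genes than of the amine receptor genes, and GABA and glycine receptor genes were below both sets. No test of these differences was made.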

How the data were processed

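H3K27me3 was profiled by ChIP-Seq after MNase digestion. The authors aligned reads with Bowtie 1.0.0, per the labels, to mm9 and to dm6 (a fly spike-in used for scaling), and called broad peaks in each library with MOSAiCS-HMM, which models binned counts as hidden states. Whether the scaling entered the calls, and which library served as background, is not given in the sources used here. The deposited files give chromosome, start and end of each peak and no score or count, so the depth is unknown. Positions lie on bins of 200 bp, each peak was read as a run of whole bins, and coordinates count from 1. Groups came from the sample titles.

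Start sites and bodies were taken from GENCODE on NCBIM37 (mm9), and a body was touched when it shared 1 bp with an interval. CpG islands scored 17 per CG and -1 per other base, over 200 bp, at least 50% G+C and a ratio above 0.6, which gave 25714 on chromosomes 1 to 19. CpG ratios used 1001 bp. Genes on chromosome X were left out of the counts. Members, lists and comparisons were chosen with earlier results of these data known, and the printed upstream sequences after the states of the genes were seen. All members enter the counts, and 40 are named, the results of the other 5 not being reported here, with positions for those with a K27M or EZHIP interval at the start site and for the 3 widest K27R intervals without one. Shares have 95% Clopper-Pearson intervals and medians order-statistic intervals. Python 3.11.15, numpy 2.4.6, scipy 1.17.1 and matplotlib 3.10.9 were used, and the interval and island code was checked on simulated data. Alternatives were other start-site distances, interval widths, island rules and body thresholds, any annotated transcript start, and the subunits without Grid2ip.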

Additional observations from a re-analysis of the deposited data

How the results depend on the processing

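Of 121 recomputed values, 108 stayed within 1.5 times the reported one or its spread. That count does not measure robustness, since some settings could hardly move a value. Counting members of 1 K27R interval once changed nothing, as the 36 start sites lay in 36 separate intervals. Leaving out Grid2ip removed 1 of 45 genes. The margin is also wide, and took in 19 EZHIP start sites within 5000 bp (14 reported). A start site within 5000 bp of an interval left 5 genes in exactly 1 of K27M and EZHIP (8 reported). With intervals of at least 5000 bp only, 9 start sites were in EZHIP, 9 in all 3 lists, 1 of 10 without an island was in K27M or EZHIP, 15 bodies were touched by K27M and 9 by EZHIP, and 7 glutamate receptor genes had the start site in EZHIP. Asking for at least 10% of the body gave 25 bodies in K27R, 8 in K27M and 9 in EZHIP, against 39, 26 and 20 reported, and turned the order of K27M and EZHIP. Islands within 2000 bp left 1 of 9 genes without an island in K27M or EZHIP, and islands of at least 500 bp made it 8 of 18. The mean body share in K27R was 35.1% (median 10.8%). With any annotated transcript start, Gria4 joined K27M and Grik2 joined EZHIP. Across the settings tried, glutamate receptor genes numbered 12 to 20 in K27M and 7 to 17 in EZHIP, and GABA and glycine receptor genes 2 to 3 and 1. The causes were not tested. No paired analysis was possible because each line has 1 library and no result comes from a test. Without read counts or replicates, an interval that is absent from a list cannot be told apart from one under the threshold of the caller.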

Other observations

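The symbol rule took chromosomes 1 to 19 only. On chromosome X, 6 more receptor genes are annotated (Gabra3, Gabre, Gabrq, Glra2, Glra4 and Gria3), and 5 of them had the start site in a K27R interval, 1 in a K27M interval and 0 in an EZHIP interval. Gabre and Gabrq lay whole in K27R intervals, Gria3 had 94.5% and Gabra3 86.4% of the body covered, and none of these 4 had any part of the body in K27M or EZHIP intervals. Glra4 was the gene with the start site in K27M, over 0.356% of its body. Glra2, an alpha subunit gene of the glycine receptor, was outside K27R at its start site, with 18.7% of the body covered by 5 intervals. The share of all chromosome X genes in each list was not computed. The whole lists held 12845 K27R, 3736 K27M and 4992 EZHIP intervals, against 12093, 3338 and 4890 on chromosomes 1 to 19. EZHIP thus had the fewest intervals beyond those chromosomes, and its count of 0 cannot be read as particular to receptor genes.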
